A study of Mus musculus with 6 samples.

Results

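RNA polymerase II (Pol II) peaks that lay outside every annotated gene were described in primary mouse fetal myotubes. A Pol II peak of replicate 2 was taken when its center was outside all genes and more than 1 kb from every start site, when it was under 2000 bp wide, and when replicate 1 had a peak within 500 bp. Of the 17488 peaks of replicate 2, 1149 met the rule. Those within 10 kb downstream of a gene were kept apart as gene-end peaks (746), and the other 403 were called distal. The regions were thus selected on the Pol II peak calls of both replicates, so their Pol II values are given without a test, while position outside genes was part of the rule and Sox6 and sequence were not used.

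Myoblasts were isolated from limb muscle of wild type C57BL/6 fetuses at E18.5, had 17 passages, and were kept for 48 hours in medium with 2% horse serum to form myotubes. Chromatin was fixed with disuccinimidyl glutarate and then formaldehyde, and was immunoprecipitated for Sox6 or Pol II (ChIP-seq). DNA before immunoprecipitation (input) was the background, and each of the 3 groups had 2 libraries from separate experiments, with no second condition. The Sox6 libraries held 2985437 and 1468604 mapped reads, the Pol II libraries 1538757 and 2762155, and the inputs 21973495 and 24249850.

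After the poly(A) signal of a gene, Pol II keeps transcribing for some distance before it leaves the DNA, so its signal extends beyond the annotated end. Pol II is also found at enhancers, where it can make short unstable transcripts, and at genes that an annotation lacks. Myod1 and Myog encode transcription factors of the muscle lineage that bind E-boxes such as CAGCTG, and Sox6 is a transcription factor with an HMG box that binds sequences close to ACAAAG or ACAATG.

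Pol II was checked over marker genes of muscle and of other cells. Pol II reads over genes were expressed as reads per kilobase and per 1000000 mapped reads (RPKM), and all 8 myotube markers were above both inputs in both Pol II libraries. Their summed Pol II level was 324.7 and 353.8 RPKM against 5.92 and 6.01 in the inputs. Both myoblast markers were also above both inputs, with summed levels of 7.42 and 5.49 RPKM of Pol II against 1.49 and 1.54. The 10 fibroblast and matrix markers summed to 6.16 and 5.70 RPKM of Pol II against 5.17 and 4.92 of input, with 3 of 10 above both inputs and none at 0 in both Pol II libraries. Without Sparc, which had the most Pol II of these, the other 9 summed to 2.91 and 2.69 RPKM of Pol II against 4.58 and 4.27 of input. Of the 3 erythroid markers, none was above input and 2 were at 0 in both. None of 3 endothelial and 2 liver markers was above both inputs, and 1 of 3 was for cartilage and for neural cells.

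The sequences of a few distal peaks are shown because they lie near muscle genes described next and hold the hexamers counted later. Each run is 300 bases of the forward strand of NCBI Build 37 (mm9), from the genome sequence of that build, over or beside the peak center in whichever of 3 placements held the most hexamers. Capitals mark CAGCTG and the hexamers ACAAAG and ACAATG, in either orientation.
Myog, 6510 bp upstream, chr1:136179872-136180171: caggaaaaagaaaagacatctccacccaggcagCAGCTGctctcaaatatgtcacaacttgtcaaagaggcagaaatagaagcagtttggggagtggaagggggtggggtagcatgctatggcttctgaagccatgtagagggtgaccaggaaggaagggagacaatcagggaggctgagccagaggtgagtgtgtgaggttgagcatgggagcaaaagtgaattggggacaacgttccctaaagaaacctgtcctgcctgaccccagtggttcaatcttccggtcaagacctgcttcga
Myod1, 26463 bp upstream, chr7:53605282-53605581: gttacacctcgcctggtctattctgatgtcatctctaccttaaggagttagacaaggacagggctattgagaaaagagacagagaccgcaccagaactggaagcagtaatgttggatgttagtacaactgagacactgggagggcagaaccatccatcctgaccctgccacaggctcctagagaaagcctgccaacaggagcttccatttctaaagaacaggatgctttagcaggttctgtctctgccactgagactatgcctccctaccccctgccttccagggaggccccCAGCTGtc
Mef2a, 71897 bp upstream, chr7:74589492-74589791: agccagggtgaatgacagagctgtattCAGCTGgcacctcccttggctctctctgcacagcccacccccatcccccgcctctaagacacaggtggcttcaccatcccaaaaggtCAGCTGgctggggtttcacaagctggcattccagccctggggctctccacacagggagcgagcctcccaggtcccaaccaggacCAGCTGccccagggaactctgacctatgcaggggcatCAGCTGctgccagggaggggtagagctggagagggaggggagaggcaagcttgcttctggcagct
Mir206, 54280 bp upstream, chr1:20614662-20614961: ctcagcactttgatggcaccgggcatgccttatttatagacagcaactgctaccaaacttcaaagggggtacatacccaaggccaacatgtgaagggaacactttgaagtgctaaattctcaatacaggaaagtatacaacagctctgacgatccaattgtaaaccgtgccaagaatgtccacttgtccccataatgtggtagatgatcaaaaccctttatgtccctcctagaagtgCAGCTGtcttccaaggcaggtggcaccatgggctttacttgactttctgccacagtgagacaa
Dysf, 32763 bp past the start, chr6:84193142-84193441: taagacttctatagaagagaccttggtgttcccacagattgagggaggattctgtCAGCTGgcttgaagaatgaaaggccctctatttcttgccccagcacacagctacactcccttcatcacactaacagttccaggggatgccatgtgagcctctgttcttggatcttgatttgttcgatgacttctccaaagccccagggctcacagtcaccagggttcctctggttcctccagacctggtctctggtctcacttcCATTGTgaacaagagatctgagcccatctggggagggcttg
Myh7, 2650 bp upstream, chr14:55615922-55616221: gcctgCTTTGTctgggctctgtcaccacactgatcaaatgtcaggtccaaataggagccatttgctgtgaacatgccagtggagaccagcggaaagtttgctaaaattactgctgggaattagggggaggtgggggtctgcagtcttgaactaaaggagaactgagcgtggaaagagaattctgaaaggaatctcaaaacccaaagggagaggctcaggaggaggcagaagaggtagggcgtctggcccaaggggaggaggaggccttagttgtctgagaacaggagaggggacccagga
The Mef2a run held 4 of the 5 copies of CAGCTG within 200 bp of that peak's center, and those of Myog, Myod1, Mir206 and Dysf held 1 each. The Myh7 window held 1 Sox hexamer, 194 bp from the peak center, and no CAGCTG. These runs do not stand for all distal peaks near muscle genes. Of the 27 distal peaks within 100 kb of a listed myogenic or contractile gene, 7 had CAGCTG within 200 bp, against 155 of all 403 (38.5%). The peaks 5600 bp upstream of Myog and 5813 bp upstream of Myod1 had none.

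Pol II binding outside genes was of moderate height, with similar medians in both replicates. The rule asked for a replicate 1 peak nearby, so agreement between replicates was partly built in. Of 2688 peaks of replicate 2 that met the limits of place and width, 1149 had one (42.7%). Reads were counted in 1000 bp around each peak center and scaled to reads per 1000000 mapped reads (RPM). At distal peaks the median was 7.80 RPM in Pol II replicate 1 and 7.96 in replicate 2, against 0.956 and 1.03 in the inputs. At gene-end peaks it was 8.45 and 8.33 RPM of Pol II against 0.774 and 0.845 of input. Distal and gene-end medians of Pol II thus differed little, while input was higher at distal peaks.

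These medians rest on few reads. A distal window held a median of 12 Pol II reads in replicate 1 and 22 in replicate 2, and a gene-end window 13 and 23. With 0.5 reads added to each count, Pol II over input on the log2 scale, averaged over both replicates, had a median of 3.0 at distal and 3.38 at gene-end peaks. Peaks at gene starts and inside genes that met the same width and replicate limits had medians of 3.49 and 3.24. Across peaks, log2 reads of the Pol II replicates had a Pearson r of 0.744 at the 403 distal peaks and 0.608 at the 746 gene-end peaks, a description over regions that share the same libraries. Without 3 distal windows of over 1000 input reads the distal r was 0.640.

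**Figure D1:**
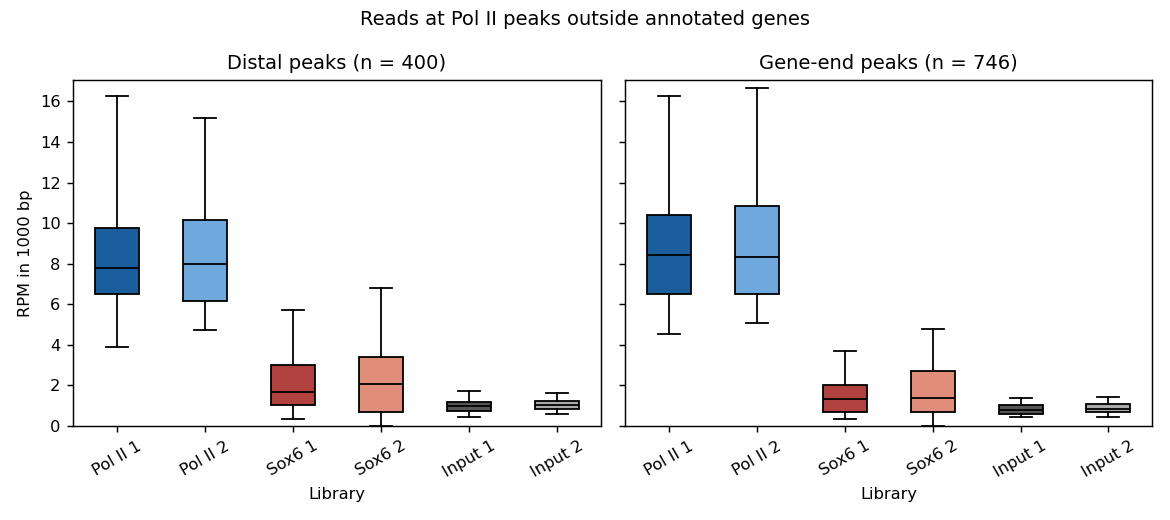
Reads per 1000000 mapped reads (RPM) in 1000 bp around the center of distal (left) and gene-end (right) Pol II peaks in each of the 6 libraries, with 3 distal windows of over 1000 input reads left out. Boxes span the quartiles with the median as a line, and whiskers run from the 5th to the 95th percentile. Both Pol II libraries lie near 8 RPM and both inputs near 1, with Sox6 between them.

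Pol II formed a narrow summit at distal peaks and a summit on a slope at gene ends. A central summit was built in, since the windows were centered on called Pol II peaks under 2000 bp wide. Averaged over 400 distal peaks, Pol II in the central bins of 200 bp was 1.95 and 1.98 RPM and fell to 0.442 and 0.432 at 4 to 5 kb on either side. At gene-end peaks, aligned along the gene, Pol II was 1.12 and 1.13 RPM at 4 to 5 kb toward the gene, 2.04 and 2.08 at the center and 0.651 and 0.689 at the same distance beyond it. Input also rose at the centers, from 0.146 and 0.151 RPM to 0.200 and 0.221 at distal peaks.

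**Figure D2:**
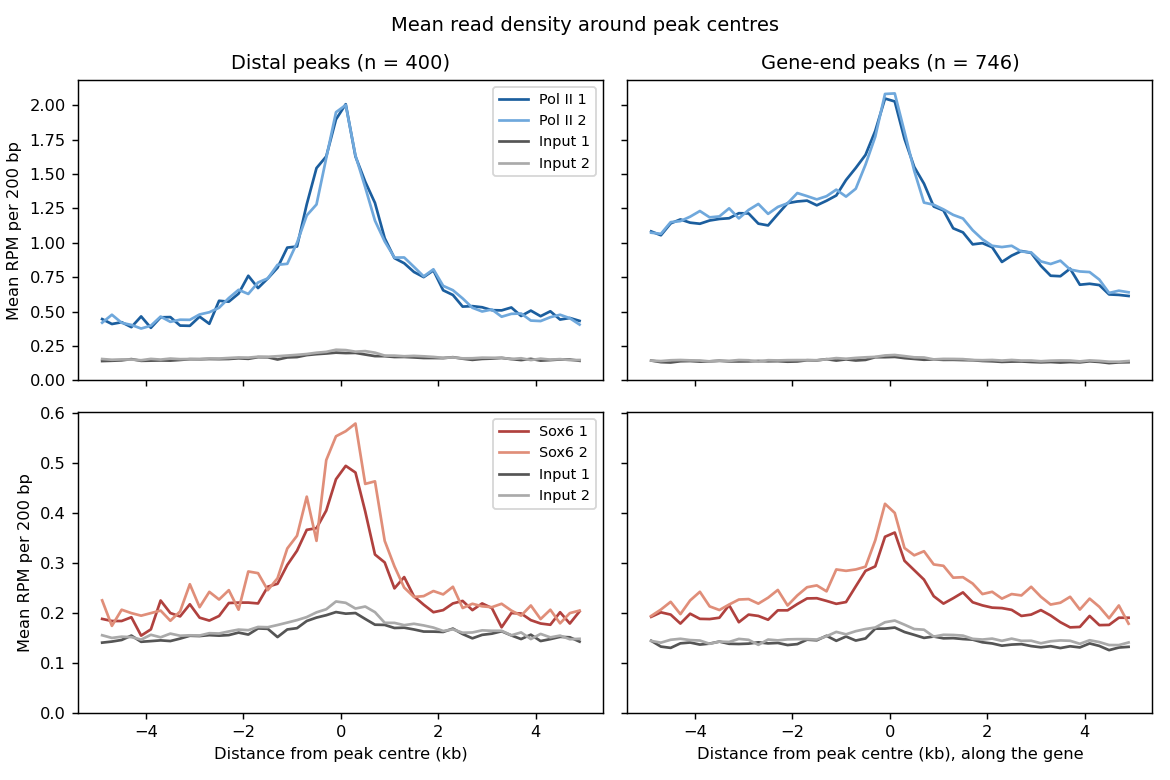
Mean RPM per 200 bp from 5 kb before to 5 kb after the peak center, for Pol II (top) and Sox6 (bottom) with the inputs in grey, at 400 distal and 746 gene-end peaks. Pol II at distal peaks falls to the same level on both sides, whereas at gene ends it stays higher on the side of the gene, and Sox6 rises more at distal than at gene-end centers.

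Gene-end peaks crowded close behind the gene. Their median distance from the annotated end was 1886.5 bp. Within the first 1 kb lay 217 of 746 peaks (29.1%), then 178, 116, 71 and 56 in the next bins of 1 kb, and 10 in the last. The Pol II level changed less than the number of peaks, with median log2 ratios of 3.50 in the first 1 kb and 2.97 in the last. Most of them, 687 of 746 (92.1%), followed a protein-coding gene, 27 a lincRNA and 10 a microRNA gene. Of the 746, 196 (26.3%) also lay within 10 kb upstream of a start.

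**Figure D3:**
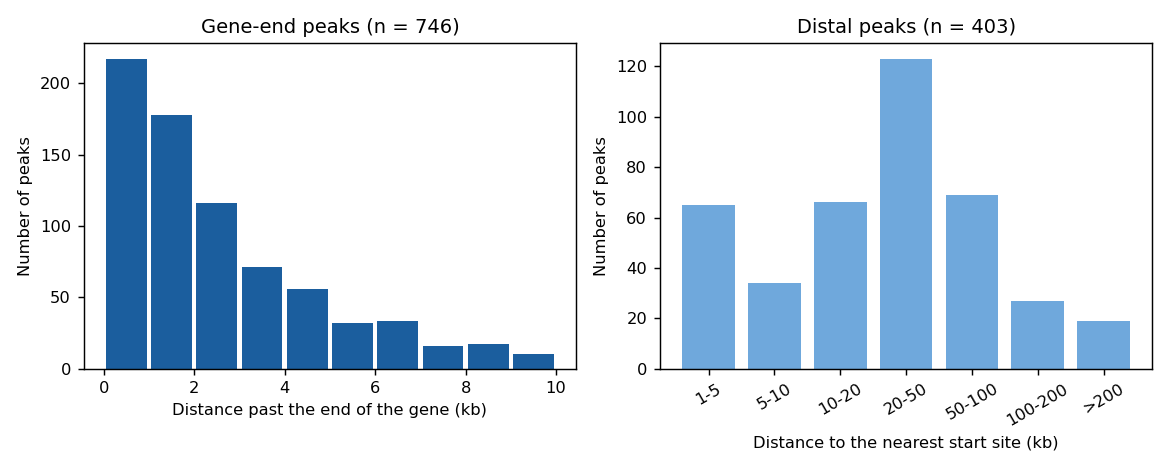
Number of gene-end peaks by distance past the annotated end of the gene in bins of 1 kb (left), and of distal peaks by distance to the nearest start site in unequal bins (right). Gene-end counts drop from 217 in the first bin to 10 in the last, and the fullest distal bin is 20 to 50 kb with 123 peaks.

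The 687 peaks behind coding genes belonged to 486 genes, of which 345 had 1 such peak, 92 had 2 and 49 had 3 or more. As a group, these genes had much Pol II over their bodies. Single ones did not, such as Dram1 with 0.254 and 0.232 RPKM against 0.548 and 0.607 of input. The median of the 486 genes was 3.93 RPKM in both Pol II libraries, against 0.423 and 0.404 over all 22225 coding genes. In the inputs their median was near 0.66 and 0.68. Among the 100 coding genes with the most Pol II, 24 had a gene-end peak (24.0%), against 2.19% of all coding genes. Since peaks wider than 2000 bp were left out, long continuous signal behind a gene is not in these counts.

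Of the 10 gene-end peaks with the largest Pol II ratio, 4 lay in a single stretch of chromosome 7. The largest ratio (log2 6.18) was 5526 bp behind 2310044H10Rik (chr7:51738791-51740771), with 24.7 and 32.6 RPM of Pol II and 0.182 and 0.742 of input. In the same stretch a second peak behind 2310044H10Rik (log2 5.28) and peaks 3869 and 2989 bp behind Josd2 (5.28 and 5.21) were also among the 10 largest. A start site of 5430431A17Rik, which RefSeq annotates on the later build GRCm38.p6, lay 106 bp from the center of the first of these peaks.

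H19, a maternally expressed noncoding RNA abundant in fetal muscle, had the highest Pol II level among these 10 peaks. The peak 533 bp behind H19 (chr7:149760111-149761691) had 47.4 and 38.4 RPM of Pol II against 1.32 and 0.825 of input, a log2 ratio of 5.33. At the imprinted Dlk1-Dio3 region on chromosome 12, the peak 1001 bp upstream of Rtl1, a retrotransposon-derived gene, had 18.2 and 25.7 RPM against 0.273 and 0.701 (log2 5.57). That peak counted as gene-end because it lay 5933 bp behind Mir136. A further one, 3681 bp behind Mir673, had 36 and 105 Pol II reads against 20 and 19 of input (log2 5.12). At all of these peaks both Pol II libraries were above both inputs in RPM. The peaks were ranked by the ratio of Pol II to input, so this is no separate support.

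The remaining members of the 10 were behind Nfe2 (572 bp, log2 5.64), Dyrk1a (3177 bp, 5.5), Tnnt2 (4614 bp, 5.47) and Acot13 (1166 bp, 5.34). Nfe2 encodes a transcription factor known from blood cells, and Tnnt2 the cardiac troponin T that embryonic skeletal muscle also makes. Behind Tnnt2 (chr1:137753311-137753591), Pol II had 18.2 and 27.9 RPM and input 0.455 and 0.536. Several of the largest ratios coincided with few reads in input replicate 1, such as 1 against 20 reads in replicate 2 at Dyrk1a, 4 against 18 at 2310044H10Rik and 4 against 11 at Nfe2. Input reads were 36 bases long in replicate 1 and 39 in replicate 2, and the part of read length in these ratios was not tested.

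Gene-end peaks were found behind genes of all parts of the muscle program. They followed 6 of 28 genes for myogenic regulators (21.4%), 13 of 44 contractile genes (29.5%), 5 of 18 genes of excitation and synapse (27.8%) and 2 of 11 of fusion and membrane (18.2%), where all coding genes had 2.19%. Of 13 glycolytic and housekeeping genes, 3 had one (23.1%), and of 10 noncoding RNA genes, 3. The lists were chosen with earlier results of these data known, and the shares are descriptions.

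Among contractile genes, Tnnt3, the fast troponin T, had 3 peaks, from 1137 to 2717 bp behind its end. The nearest (chr7:149702551-149703551) held 61 and 122 Pol II reads against 29 and 39 of input, a log2 ratio of 4.83. Neb, which encodes the thin filament protein nebulin, and Mybpc1, a slow myosin binding protein, also had 3 each, with log2 ratios from 3.53 to 4.05 and from 3.11 to 3.45. Tnni2, Tnnt1 and Tnnt2 had 2 each. The lowest ratio of all was at Myl4, the embryonic and atrial myosin light chain, where 7 and 10 Pol II reads stood against 40 and 46 of input (log2 1.20).

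Among regulators, Mef2c had 3 gene-end peaks, and Myod1, Tead1, Tead4 and Hes6 had 1 each. The peak 2019 bp behind Myod1 had 21 and 49 Pol II reads against 20 and 21 of input (log2 4.12). Chrna1, the alpha subunit of the muscle acetylcholine receptor, had 3 peaks between 691 and 2511 bp, the nearest with 30 and 63 reads against 21 and 18 (log2 4.63). Cacna1s, the voltage sensor of the muscle calcium channel, had 3 as well, with log2 ratios of 3.66, 3.87 and 4.62. In all of these the nearer of the peaks was not always the higher one.

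Distal peaks were spread over the genome and mostly far from starts. Their median distance to the nearest start was 26134 bp, with quartiles of 10357 and 53787.5 bp and a maximum of 441401 bp. Of 403, 99 lay within 10 kb upstream of a start (24.6%), 115 over 50 kb from any start (28.5%) and 46 over 100 kb (11.4%). When peaks within 10 kb of each other were joined, they formed 270 loci, of which 181 held a single peak and 26 held 3 or more. The coding genes nearest to distal peaks had medians of 1.84 and 1.86 RPKM of Pol II, between those of all coding genes and those with gene-end peaks.

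The most crowded locus had 8 distal peaks over 17400 bp, from 47170 to 64370 bp past the start of Rhob, which encodes a small GTPase. Its windows held 5 to 29 Pol II reads in replicate 1 and 15 to 39 in replicate 2, with 12 to 29 reads in the inputs. A locus of 6 peaks lay near Fzd2 and Gm1564 on chromosome 11. Loci of 4 peaks included those near Ivns1abp, Sypl, Dscr3, Qk, Dapl1, Gjd2 and Sspn and between Disc1 and Sipa1l2.

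Some distal peaks were close to start sites that a later annotation added. Promoter sequences of RefSeq on GRCm38.p6 were searched in the bases around each peak, and 26 of 403 distal (6.45%) and 17 of 746 gene-end peaks (2.28%) lay within 1 kb of a start found this way. These included the start of Gm45923, a noncoding gene, 742 bp from the center of the peak upstream of Myod1, and further starts of Rnf4 and Arhgef2. The median Pol II log2 ratio was 3.29 at these distal and 3.45 at these gene-end peaks. For the other 377 distal peaks no such match was found within 1 kb.

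The distal peak with the largest Pol II ratio was 3110 bp upstream of Tnrc18 (chr5:143581811-143583091). Pol II had 21.4 and 29.0 RPM there, and the inputs 0.182 and 0.742, which gave a log2 ratio of 5.99. The neighboring peak, 1150 bp upstream of the same start, had a ratio of 4.55. The other 8 of the 10 largest lay 24620 bp upstream of Zfp541 (5.40), 8386 bp from 7SK (4.92), 5600 bp upstream of Myog (4.73), 39337 bp upstream of Eif4g2 (4.49), 5813 bp upstream of Myod1 (4.44), 9186 bp from U6atac and 43790 bp past Sypl (4.39), 27092 bp past Azin1 (4.29) and 2762 bp from Gm12596 (4.22). The inputs held 4 and 18 reads at the first Tnrc18 peak and 2 and 9 at Zfp541, so these ratios are imprecise.

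Myod1 and Myog, the master regulator of the muscle lineage and the factor that drives its terminal differentiation, both had rows of distal Pol II peaks upstream. Mef2c, Tead1 and Tead4 from the same list had none within 100 kb. Myod1 had 6, at 5813, 7413, 11073, 26463, 33873 and 35773 bp upstream. The highest by ratio, at 5813 bp (chr7:53625291-53626771), held 21 and 39 Pol II reads against 15 and 14 of input. The next, at 26463 bp (chr7:53604931-53605831), held 18 and 40 against 14 and 23 (log2 4.05). At the other 4, replicate 1 had 7 to 16 reads and replicate 2 had 16 to 42, with log2 ratios from 2.59 to 2.95. Pol II was also present beside these peaks. In bins of 500 bp it was 5.20 and 6.15 RPM at 5750 bp upstream. At 3750 bp upstream, where no distal peak was counted, it was 7.80 and 13.8 RPM. The peaks are thus not all separate summits.

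Upstream of Myog, 3 distal peaks stood at 5600, 6510 and 7410 bp. The nearest (chr1:136180531-136181431) had 29 and 46 Pol II reads against 12 and 19 of input. The peak at 6510 bp had 18 and 30 against 25 and 29 (log2 3.28), and that at 7410 bp had 11 and 18 against 19 and 27 (2.82). A pair of gene-end peaks lay farther upstream, at 12770 and 14320 bp, since a copy of the small nuclear RNA gene U6 is annotated in between.

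**Figure D4:**
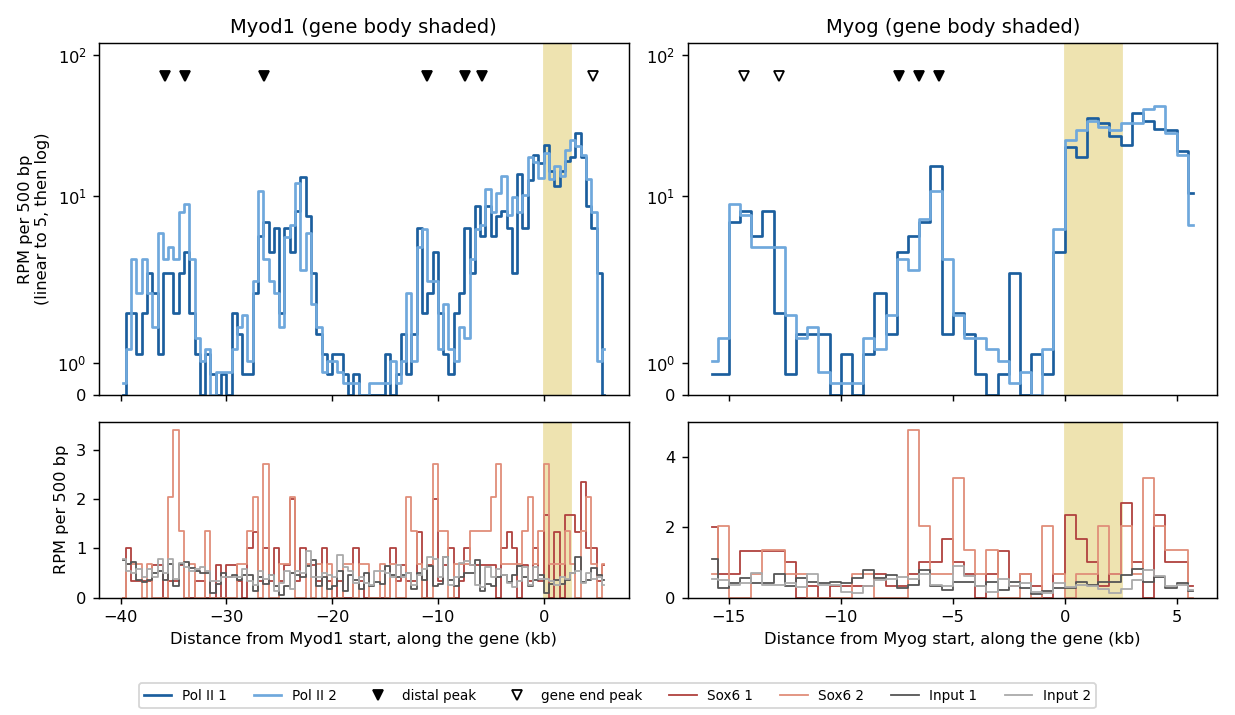
RPM per 500 bp along Myod1 and Myog by distance from the start, for Pol II (top, linear to 5 and logarithmic above) and for Sox6 and input (bottom), with the gene shaded. Filled triangles mark distal and open triangles gene-end peaks. Both Pol II replicates rise at the upstream rows and, at Myod1, also between marked peaks.

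Contractile genes had distal peaks within 100 kb in 10 of 44 cases (22.7%) and myogenic regulators in 3 of 28 (10.7%), against 3 of 13 glycolytic and housekeeping genes (23.1%) and 3.18% of all coding genes. With muscle genes packed near one another, some peaks counted for 2 of them. For the 27 distal peaks near genes of both lists, Pol II ranged from 4.55 to 18.8 RPM in replicate 1 and from 4.34 to 16.7 in replicate 2. Des, the muscle intermediate filament desmin, had a peak 14833 bp upstream with 9.10 and 9.77 RPM against 0.637 and 0.701 of input. Mylpf and Myl1, fast myosin light chains, had peaks 17701 bp past and 40093 bp upstream of their starts, with log2 ratios of 3.02 and 3.41. These peaks were nearer to other coding starts, 1464 bp upstream of Zfp553 and 35568 bp past Lancl1.

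A group of 4 distal peaks lay 67062 to 72692 bp past the start of Actc1, the cardiac actin of fetal muscle, and nearer to Gjd2. The highest (chr2:113806771-113807691) had 13.6 and 15.2 RPM of Pol II against 1.05 and 0.866 of input. The pair of peaks 85556 and 87236 bp past Tnnt3 was at the same time 21543 and 23223 bp upstream of H19. The farther of these from H19 had 18.8 and 16.7 RPM against 1.77 and 0.990. Further distal peaks within 100 kb lay 12607 to 96894 bp from Mef2a (3), Mybph, Mybpc1, Actn2 and Tnnc2. The Actn2 peak was nearer to the start of Heatr1 (25484 bp upstream of it). The Tnnc2 peak was nearer to that of Pcif1 (2443 bp upstream of it).

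Genes for myoblast fusion and the muscle membrane had distal peaks in 4 of 11 cases (36.4%). A peak 3362 bp upstream of Mymk had 14.3 and 8.69 RPM of Pol II and one 8900 bp upstream of Mymx had 8.45 and 6.88, where Mymk and Mymx encode the muscle proteins that fuse myoblasts. Itga7, the laminin receptor subunit, had one at 2208 bp with 11.05 and 11.6 RPM. Dysf, the membrane repair protein dysferlin, had 2, at 21453 and 32763 bp past its start. The excitation list had 1 gene with a distal peak, the sodium channel Scn4a, at 10629 bp upstream. That peak was nearer to 2310007L24Rik, at 1557 bp upstream of its start.

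Among noncoding RNA genes, the muscle microRNA genes Mir206 and Mir133b shared 3 distal peaks. They lay 44620, 54280 and 58720 bp upstream of Mir206. All 3 were nearer to the start of the coding gene Pkhd1, at 2226 to 16326 bp upstream of it. The first (chr1:20623651-20625291) had 9.75 and 14.1 RPM of Pol II against 1.14 and 0.825 of input. The second (chr1:20614671-20614951), whose sequence is given above, had 9.75 and 6.15 against 0.728 and 0.907. A further peak lay 6370 bp upstream of Malat1, and those of H19 were named above.

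Sox6 was not part of the choice of peaks, but the inputs were, as the background of the Pol II peak calls. The part of this in the comparison below was not tested. Sox6 reads were compared with input over all 17488 Pol II peaks by limma with a trend. More Sox6 than input (adjusted p under 0.05) was found at 2187 of them (12.5%), and less at 1 (0.00572%). Distal peaks had 127 of 403 higher (31.5%) and gene-end peaks 131 of 746 (17.6%), with none lower in either. Peaks inside genes had 14.2% and those at gene starts 10.99%. Both Sox6 libraries were above both inputs in RPM at 227 distal (56.3%) and 355 gene-end peaks (47.6%), against 37.4% of all peaks. The share at distal peaks was thus above that of all peaks, and the share at gene ends was nearer to it.

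These counts depended strongly on each library. Without input replicate 1 the calls fell to 50 at distal, 28 at gene-end and 588 at all peaks, and without input replicate 2 to 60, 43 and 789. Without Sox6 replicate 1 they rose to 241, 412 and 8207, and without Sox6 replicate 2 to 207, 326 and 5723, with 1456 and 1278 of all peaks then called lower. In each case a single library was left in one group and was taken to vary like the other group. The percentage at distal peaks (12.4, 14.9, 59.8 and 51.4) was above that of all peaks (3.36, 4.51, 46.9 and 32.7) in all of these 4 fits. Adding 2 reads in place of 0.5 raised the calls to 247 at distal (61.3%), 441 at gene-end (59.1%) and 8365 at all peaks (47.8%). Counted in the deposited peak interval, the calls were 147 at distal (36.5%), 208 at gene-end (27.9%) and 4877 at all peaks (27.9%), so gene-end and all peaks then had the same share.

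Read totals gave a ratio that does not depend on the added 0.5 reads, which raise low counts of the smaller Sox6 libraries. Without the 3 windows of over 1000 input reads, the mean at distal peaks was 2.25 and 2.60 RPM of Sox6 against 0.985 and 1.07 of input. At gene-end peaks it was 1.59 and 1.79 against 0.821 and 0.878. Over all peaks it was 1.34 and 1.55 against 0.810 and 0.858. Sox6 was above input in both replicates in each of these sets, and highest at distal peaks.

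As a share of all mapped reads in merged windows, distal peaks held 885.0 and 1025.5 RPM of Sox6 against 386.2 and 419.2 of input, a ratio of means of 2.37. Gene-end windows held 1165.3 and 1312.1 against 601.5 and 644.9, a ratio of 1.99. Both Sox6 libraries were above both inputs. With 2 libraries against 2 the exact permutation test (two-sided) cannot go below p = 0.333, which was its value in both. With the 3 windows kept, distal peaks had 2169.5 and 2017.6 against 827.0 and 1732.3, a ratio of 1.64, and p = 0.333 in the same exact permutation test. In windows of 450 bp with the 3 kept, Sox6 replicate 2 was not above its input (1496.0 against 1511.7, a ratio of 0.99), and the ratio of means was 1.51 (exact permutation p = 0.667). Without the 3, the ratio in 450 bp was 2.48.

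Those 3 windows were distal peaks on chromosomes 9 (chr9:35112811-35113071), X (chrX:139917591-139917631) and 12 (chr12:3110011-3110051). They held 6950 and 20668, 1552 and 5974, and 1184 and 5201 input reads, against 575 and 849, 76 and 142, and 123 and 192 of Pol II. In the same order, their Pol II log2 ratios after scaling to library size were 0.24, -0.51 and 0.57 in replicate 1 and -1.47, -2.26 and -1.62 in replicate 2, so that the mean was below 0 at each (-0.61, -1.38 and -0.52). The next windows by input reads, near Gm1564 and Fzd2, held 60 and 78 and 60 and 61.

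Sox6 rose to a summit at the Pol II centers. In the central bins of 200 bp at distal peaks it was 2.62 and 2.83 times its level at 4 to 5 kb, where input was 1.37 and 1.46 times its own. At gene-end peaks the same ratios were 1.89 and 1.98 for Sox6 and 1.26 and 1.29 for input. Input thus also rose at the centers, by less than Sox6. Sox6 was above input already at 4 to 5 kb. At distal peaks it had 0.184 and 0.197 RPM per 200 bp there, against 0.146 and 0.151. At gene-end peaks it had 0.189 and 0.206 against 0.134 and 0.142.

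Distal peaks also had more input reads and another base composition than the other classes, with a median of 21 and 25 input reads and 49.2% G and C, against 17 and 20 reads over all peaks. When all Pol II peaks were split at the quartiles of G and C content, 22.0, 36.3, 35.0 and 29.3% of distal peaks were called from the lowest to the highest bin, against 6.65, 12.4, 16.6 and 14.7% of all peaks. Split in the same way by input reads, 11.5% (3 of 26), 30.3, 28.7 and 36.2% of distal peaks were called, against 9.17, 8.87, 12.4 and 20.3% of all. The distal share was the larger in each of these bins, although the lowest by input reads held only 3 distal calls. The highest by input reads was open-ended and held 196 of the 403 distal peaks. The part of either measure in the distal share was not tested.

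**Figure D5:**
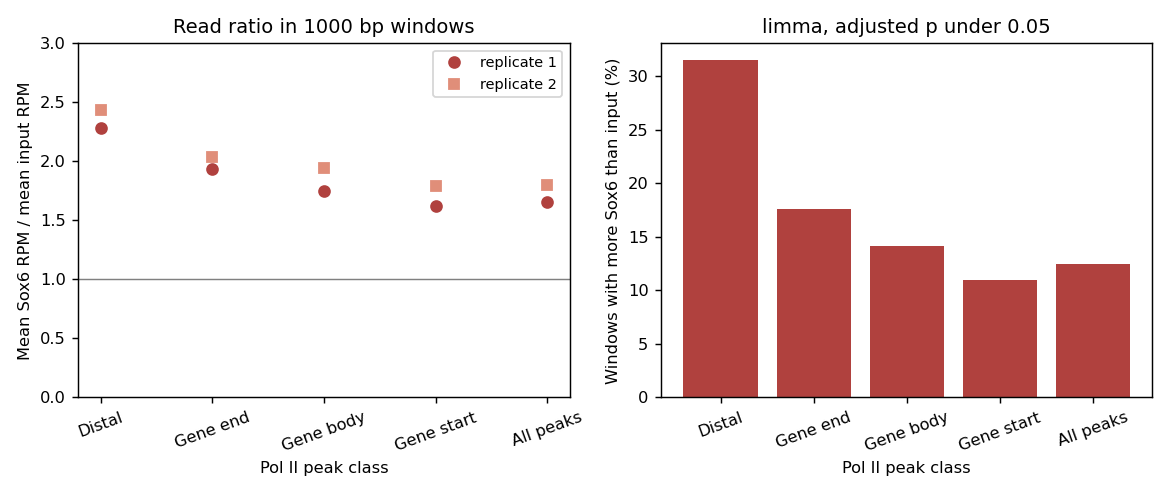
Left, mean Sox6 RPM over mean input RPM in 1000 bp windows by class of Pol II peak, for each replicate, without windows of over 1000 input reads. Right, percentage of windows with more Sox6 than input by limma at an adjusted p under 0.05. Both replicates put distal peaks highest, and 31.5% of distal windows were called against 12.5% of all.

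Sox6 peaks that the authors' common list holds were close to some of these regions. That list was called from the same Sox6 libraries and inputs. Its overlap with high Sox6 ratios, here and below, is therefore no separate support for them. Of the distal peaks, 36 of 403 had a common Sox6 peak within 500 bp (8.93%), against 10 of 746 gene-end peaks (1.34%) and 2.09% of all Pol II peaks. Seen from the Sox6 side, 32 of the 1066 common Sox6 peaks (3.0%) were near a distal and 10 (0.938%) near a gene-end peak. With such a peak nearby the median Sox6 log2 ratio of distal peaks was 2.44 and 27 of 36 were called. The other 367 distal peaks had a median of 0.96, and 100 of them were called (27.2%).

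The largest Sox6 ratio of all distal peaks was 2650 bp upstream of Myh7, which encodes the slow and cardiac beta myosin heavy chain. At this peak (chr14:55616031-55616211) Sox6 had 16.4 and 27.2 RPM, input 0.819 and 0.866, and Pol II 5.20 and 6.15. The log2 ratio of Sox6 to input was 4.63 ± 0.32 (SE, adjusted p = 9.78e-09, limma). Both Sox6 libraries were far above the inputs and above both Pol II libraries, and the peak overlapped a common Sox6 peak.

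The second largest, 11878 bp upstream of Smug1 (chr15:102999931-103000591), had 8.37 and 16.3 RPM of Sox6 against 0.637 and 0.660 (log2 4.15 ± 0.37, adjusted p = 3.30e-07, limma). A peak 179699 bp from the nearest start on chromosome 17 (chr17:4498031-4498611) had 7.03 and 10.9 against 0.364 and 1.11 (log2 3.76). The other 7 of the 10 largest lay 47281 bp past Cnot6l (3.27), 5517 bp upstream of Gltscr1 (3.18), 109929 bp past Zfp238 (3.08), 257633 and 256693 bp upstream of Tbl1xr1 (3.05 and 2.91), 153068 bp upstream of Tnfaip3 (2.97) and 23143 bp upstream of B4galt1 (2.86). All 10 had a common Sox6 peak within 500 bp, and all 10 kept their call in every alternative fit, including those without 1 library.

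Near myogenic and contractile genes, 7 of 27 distal peaks (25.9%) had more Sox6 than input, beside 31.5% of all distal peaks and 12.5% of all Pol II peaks. Next to Myh7 these were at Myog (6510 bp upstream), Mef2a (12607 bp), Mybpc1 (26134 bp), Actn2 (29154 bp), Actc1 (71392 bp past) and Mybph (93584 bp upstream, nearest to Gm8618). At Actn2, the sarcomeric alpha-actinin, Sox6 had 2.68 and 6.13 RPM against 0.637 and 1.03 (log2 2.37 ± 0.46, adjusted p = 0.0016, limma). At Actc1 it had 3.35 and 4.09 RPM against 1.05 and 0.866 (2.02 ± 0.41, adjusted p = 0.00208, limma).

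At Myog the Sox6 libraries differed, with 2.01 and 6.81 RPM against 1.14 and 1.20 (log2 1.73 ± 0.47, adjusted p = 0.0178, limma), and neither overlapped the inputs. At Mef2a they had 3.68 and 4.09 against 1.0 and 1.48 (1.73, adjusted p = 0.00457, limma). Of the 7 calls, 2 were left without input replicate 1 and 3 without input replicate 2, while without Sox6 replicate 1 or 2 the 27 peaks had 16 and 13. Without input replicate 1 the adjusted p rose to 0.156 at Myog, 0.25 at Mef2a, 0.847 at Mybpc1, 0.0509 at Actc1 and 0.798 at Mybph. Without input replicate 2 it was 0.0977 at Myog, 0.297 at Mybpc1, 0.0714 at Actc1 and 0.172 at Mybph. The calls at Myog, Mybpc1 and Mybph were also lost with voom weights (0.0687, 0.123 and 0.122), and without Sox6 replicate 2 that at Myog was 0.0560. In 450 bp windows the call at Actc1 ended, with a log2 ratio of 0.96 (adjusted p = 0.549, limma), as did those at Mybpc1 (0.12, 0.944) and Mybph (1.35, 0.212). In the deposited peak interval Myog (log2 2.06, adjusted p = 0.142, limma) and Mybph (0.96, 0.0998) were lost. Mybpc1 was lost among windows of at least 20 reads (adjusted p = 0.0503, limma).

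None of the 6 distal peaks of Myod1 passed the test. The one 5813 bp upstream had 1.0 and 4.09 RPM of Sox6 against 0.683 and 0.577 (log2 1.81, adjusted p = 0.0613, limma). Those at 11073, 33873 and 35773 bp had ratios below 0 (-1.14, -0.70 and -0.75), with 0 to 3 Sox6 reads in each library.

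Near genes of the other lists only, 4 of 15 distal peaks (26.7%) had more Sox6 than input. All distal peaks had 31.5%, and all Pol II peaks 12.5%. The 4 calls were at Mymx, Mir206, Dysf and Actg1. Of these calls, only that at Actg1 (adjusted p = 0.0403, limma) was lost in any alternative fit, including those without input replicate 1 or 2. Mymx had a called peak 8900 bp upstream with 3.68 and 6.13 RPM of Sox6 against 0.592 and 0.784 (log2 2.83 ± 0.43, adjusted p = 0.000153, limma). The Mir206 peak at 54280 bp, nearer to Pkhd1, had 5.69 and 4.77 RPM against 0.728 and 0.907 (2.71 ± 0.39, adjusted p = 7.94e-05, limma). The peaks on either side of it had 0 to 3 Sox6 reads in each library. The Dysf peak at 32763 bp had 4.69 and 13.6 RPM against 1.18 and 1.57 (2.57 ± 0.40, adjusted p = 0.000198, limma), while the one at 21453 bp had 2.01 and 1.36 against 0.683 and 1.20 (1.06, adjusted p = 0.21, limma).

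At gene ends the largest Sox6 ratios were 782 bp behind 2810468N07Rik (chr17:25712731-25712791; log2 3.86), 2776 bp behind Ms4a10 (3.24), 572 bp behind Nfe2 (3.15), 5526 bp behind 2310044H10Rik (3.08) and 2507 bp behind Specc1l (3.06). The first had 7.03 and 14.3 RPM of Sox6 against 0.455 and 1.03 of input. It and those at Ms4a10 and Specc1l overlapped a common Sox6 peak. Those at Nfe2 and 2310044H10Rik were at places of high Pol II, and without input replicate 1, which had 4 reads at each, their adjusted p rose to 0.139 and 0.117.

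Of the 50 gene-end peaks behind genes of all lists, 13 had more Sox6 than input (26.0%), against 17.6% of all gene-end peaks. Without input replicate 1, and likewise without input replicate 2, 1 of 50 was called, and without Sox6 replicate 1 or 2 there were 30 and 25. In the first 2 of these fits the remaining call was at Tnnt3. Chrna1 had all 3 of its gene-end peaks called, with log2 ratios of 1.77, 1.59 and 1.89 (adjusted p = 0.0127, 0.0468 and 0.0157, limma). None of the 3 was called without input replicate 1 (0.252, 0.65 and 0.106) or without input replicate 2 (0.33, 0.576 and 0.457), and the second was also lost with voom weights and in 450 bp windows. Tnnt3 had 1 of 3 called, the nearest to its end (1.87, adjusted p = 0.00115, limma). Single peaks were called behind genes that included Tnnt2, Mef2c, Actn2, Neb, Mybpc1, Srl, Neat1 and Ppia. The peak behind H19 had 2.34 and 2.04 RPM of Sox6 against 1.32 and 0.825 and did not pass (1.20, adjusted p = 0.0961, limma).

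The sequence of distal peaks differed from its surroundings in one hexamer above the others. CAGCTG was within 200 bp of the center at 155 of 403 distal peaks (38.5%), against 174 of 806 windows of the same length 2 kb to either side (21.6%). At gene-end peaks the shares were 24.1 and 18.6%, at peaks inside genes 29.0 and 20.5%, and at gene starts the peaks had 23.1%. Within 100 bp the distal shares were 22.3 and 13.3%, and within 500 bp 63.3 and 44.4%. An exact match is a description and does not show that a factor was bound.

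Other motifs differed less. GGAATG, bound by TEAD factors, was at 27.0% of distal peaks and 20.6% of their side windows, and at 23.7 and 18.4% for gene ends. ACAAAG or ACAATG was at 44.2% of distal peaks and 45.8% of side windows, and at 44.8 and 43.2% for gene ends. CAGGTG was at 30.8 and 28.4% (distal), ACCACA at 26.8 and 28.7%, TGACTCA at 8.44 and 8.19%, and TAAAAATA at 5.46% in both. All were searched on both strands, and the poly(A) hexamer AATAAA was at 27.8% of distal peaks against 35.0% of side windows.

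Base composition set distal peaks apart from gene starts. Distal peaks had a median of 1.25 CG pairs per 100 bases, side windows and gene-end peaks 1.0, and peaks at gene starts 3.50. Sox6 calls were set beside the hexamers. With CAGCTG, 65 of 155 distal peaks (41.9%) had more Sox6 than input and the median log2 ratio was 1.17, against 62 of 248 (25%) and 0.81 without it. With ACAAAG or ACAATG, 57 of 178 were called (32.0%), close to the 31.5% of all distal peaks. Gene-end peaks had 26.1% called with CAGCTG and 14.8% without.

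CAGCTG and Sox6 calls were more frequent among the peaks far from starts. Among distal peaks over 100 kb from every start, 23 of 46 had CAGCTG and 23 of 46 had more Sox6 than input, whereas within 10 kb upstream of a start 29 of 99 (29.3%) and 26 of 99 (26.3%) did. Median Pol II log2 ratios of these sets were 2.86 and 3.15. The differences between the sets were not tested.

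Peaks close to the limits of the rule were as follows. The widest members were 1980 bp wide. They included those near P4hb, Ywhaz and Sema3b, with Pol II log2 ratios of 3.28, 4.22 and 3.18. The peak 5526 bp behind 2310044H10Rik (6.18) was as wide. Just outside, peaks of 2000 bp near Slc6a6, AC123853.2 and Tuba1b had 2.88, 4.15 and 5.45. At 500 bp from a replicate 1 peak, those near Lrrn1, Ralgps2 and Lad1 had 5 to 7 Pol II reads in replicate 1, and those at 520 bp near Syf2 and Cdon had 6 and 7. Starts lay 1001, 1013 and 1015 bp away from the nearest members (Rtl1, Cacybp and Oit3) and 987, 989 and 998 bp from those left out (Klf10, Mcrs1 and Pygm). The gene-end limit fell between 9608, 9635 and 9853 bp (Dyrk1b, Ptbp1 and 2900076A07Rik by nearest start) and 10064, 10113 and 10315 bp (Trp53inp1, Heyl and Mir365-2).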

How the data were processed

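The authors aligned reads with Bowtie 0.12.5 to NCBI Build 37 (mm9) and called peaks per sample with SISSRs against the input of each experiment at a fragment length of 450 bp. The deposited files hold positions of uniquely mapped reads and of peaks, and the deposited score columns (constant, or an unnamed peak score for Pol II) were not used. From these, reads were counted by their 5' end. Genes were the 37273 of GENCODE vM1 on the same build, where Mymk and Mymx are listed under older names. Values were log2 of reads, plus 0.5, per 1000000 mapped reads. Sox6 was compared with input by limma 3.58.1 in R 4.3.3 with a trend and Benjamini-Hochberg adjustment. The fit was also run on simulated data, the outcome of which is not reported here. The deposited files hold read positions and no count table, and no count model was fitted. Python 3.11.15 with pandas 2.3.3, scipy 1.17.1 and pysam 0.24.0 did the rest. Repeated positions made up 2.96 to 7.88% of reads and were kept. The members, gene lists and rules for named peaks were chosen with earlier results of these data known. The peaks named were the 10 distal and 10 gene-end peaks with the largest Pol II ratio among those with at least 10 Pol II reads in each replicate, the 10 and 5 with the largest Sox6 ratio among those called, distal peaks within 100 kb of a myogenic or contractile gene start, the 5 with most input reads and those beside each threshold, and further peaks of listed genes were added after their values were seen. P-values rest on the spread between 2 libraries per group, which limma drew toward a trend fitted over all 17488 peaks. They are thus not set by the libraries of a single window alone. A few peaks that these rules name are not reported here.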

Additional observations from a re-analysis of the deposited data

How the results depend on the processing

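Counts of windows with more Sox6 than input depended strongly on single libraries and on the reads added. Leaving out 1 library at a time, they ranged from 50 to 241 at distal, from 28 to 412 at gene-end and from 588 to 8207 at all Pol II peaks, lowest without Input replicate 1 and highest without Sox6 replicate 1. Adding 2 reads gave 247, 441 and 8365, and counting in the deposited peak interval gave 147 at distal (36.5%), 208 at gene-end (27.9%) and 4877 at all peaks (27.9%). The cause was not tested. Median Pol II log2 ratios became 3.20 at distal and 3.49 at gene-end peaks in 450 bp windows, 3.30 and 3.53 in the peak interval, and 3.29 and 3.67 when scaled to reads outside peaks. The ratio of Sox6 to input, 1.64 at all distal peaks, was 1.51 in 450 bp windows and 2.72 with repeated positions counted once. At gene-end peaks it was 2.15 in 450 bp windows, against 1.99. CAGCTG was at 22.3 and 63.3% of distal and at 12.5 and 46.4% of gene-end peaks within 100 and 500 bp, and at 18.4 and 20.8% of windows 5 kb beside them. With the replicate block the Sox6 counts were 145, 158 and 2613. Deviations of Sox6 replicate 1 and input replicate 1 from their group means had r = 0.024. With so few Sox6 reads per window, this cannot show whether the libraries were paired. Under other limits of the rule the number of peaks ranged from 306 to 511 for distal and from 589 to 966 for gene-end. Leaving out windows of over 1000 input reads (also in 450 bp windows, where the distal ratio was then 2.48), or peaks at later RefSeq starts (377 distal left), was chosen after seeing the data. No named Sox6 ratio changed sign, but in 450 bp windows with all distal peaks kept Sox6 replicate 2 stood at 0.99 of its input. Few Sox6 reads per window limit single peaks.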
